A study of Mus musculus with 3 samples.

Results

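Setd1a CUT & RUN peaks that lay over the transcription start site (TSS) of 1 protein-coding gene and held CpG-rich DNA were examined in cultured quiescent adult neural stem cells (NSCs). A peak was a member when it lay on chromosomes 1 to 19, overlapped the TSS of a protein-coding transcript, had no protein-coding TSS of another gene on the opposite strand within 1000 bp of either edge, and had a CpG observed/expected ratio of 0.6 or more. This ratio sets the CG dinucleotides counted in the peak against the number its C and G content would give. Of the 6969 listed peaks, 6911 lay on chromosomes 1 to 19, 3032 of these covered a coding TSS, and 2275 were members. The others over a coding TSS were 209 CpG-poor peaks at 1 gene and 548 peaks at divergent gene pairs, where a second coding gene starts nearby on the other strand. No measured signal chose the members, apart from the presence of a peak in the list.

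The cells came from the dentate gyrus of Hopx-CreERT2::Setd1afl/fl::H2B-GFP mice aged 7 to 8 weeks, and their genotype label was WT. Quiescence was induced by removing EGF and adding BMP4 at 20 ng/ml beside FGF2 at 20 ng/ml, and cells were taken at day 5. The experiment had 2 Setd1a libraries from independent cultures and 1 library with a rabbit IgG negative control antibody, all from the same genotype, treatment and day. All carried the floxed Setd1a alleles, and in the study's scheme for these cultures a lentivirus carrying GFP, with or without Cre, was given at day 2, before cells were taken. Which virus the cells labelled WT received is not given in the sources used here. The file gives the start and end of each peak found in both Setd1a libraries, with no height and no value per library. The spread between the 2 cultures could therefore not be measured, the depth is unknown, and the intervals below stand for counting error alone, over peaks or genes. Absence from the list means that no peak was listed, not that Setd1a was absent.

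Setd1a is the catalytic subunit of a SETD1 complex, which methylates lysine 4 of histone H3. The Cxxc1 (CFP1) subunit binds unmethylated CpG through its CXXC zinc finger, and Wdr82 ties the complex to RNA polymerase II early in transcription. CpG islands, stretches of CpG-dense and mostly unmethylated DNA, mark the promoters of most housekeeping genes and carry trimethylated H3K4 where those genes are active.

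CpG density is shown by 4 stretches of GRCm38 (mm10), taken at members and at the nearest peak below the threshold. Each is read 5′ to 3′ on the strand of the gene, stops 20 bases into the transcript and has every CG in capitals. Ppp2r3d, annotated as a regulatory subunit of protein phosphatase 2A, had the widest member peak, and its stretch was chr9:124424135-124424304 on the minus strand. Errfi1, an inhibitor of the EGF receptor, had the third highest CpG ratio of all members (chr4:150854950-150855092, plus strand). Lman2, a lectin that carries glycoproteins out of the endoplasmic reticulum, was the second lowest member (chr13:55362764-55362933, minus strand), and Phc2, a Polycomb subunit, was the nearest peak below the threshold (chr4:128654552-128654721, plus strand). The stretches held 16, 25, 14 and 11 CG dinucleotides in that order. They were placed by the TSS and can run past the peak, so these counts do not give the peak's ratio. At Lman2 the peak reached only 75 bp upstream of the TSS.
Ppp2r3d: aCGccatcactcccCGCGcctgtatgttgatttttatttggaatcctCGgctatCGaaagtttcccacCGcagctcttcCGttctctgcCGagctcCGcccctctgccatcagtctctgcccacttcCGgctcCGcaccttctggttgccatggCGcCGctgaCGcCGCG
Errfi1: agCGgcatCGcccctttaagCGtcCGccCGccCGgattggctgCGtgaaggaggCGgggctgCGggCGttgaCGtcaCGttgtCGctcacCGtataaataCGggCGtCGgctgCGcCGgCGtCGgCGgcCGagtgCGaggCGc
Lman2: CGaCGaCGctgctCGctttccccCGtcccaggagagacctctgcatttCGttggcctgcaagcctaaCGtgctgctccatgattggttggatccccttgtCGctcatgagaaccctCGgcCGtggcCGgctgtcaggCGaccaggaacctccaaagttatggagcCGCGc
Phc2: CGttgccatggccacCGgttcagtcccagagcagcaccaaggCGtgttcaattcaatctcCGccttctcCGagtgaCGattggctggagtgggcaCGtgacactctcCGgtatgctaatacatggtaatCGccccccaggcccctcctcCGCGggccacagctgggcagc

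For 6 motifs that transcription factors bind in promoters, 1 wide member peak each is shown, with the motif in capitals in either orientation. The motif had to lie before the gene's principal TSS, with at least 100 bases there outside annotated exons, and no gene was shown for a second motif, so a wider peak can hold the same letters. The ETS motif was read at Wdr1, which helps to take apart actin filaments (chr5:38561787-38561956, minus strand). The NRF1 motif was read at Xpa, a nucleotide excision repair factor (chr4:46196292-46196461, minus strand), and the YY1 motif at Mnt, a repressor that pairs with Max (chr11:74830770-74830939, plus strand). The cAMP response element (CRE) was read at Gpbp1 (chr13:111490092-111490261, minus strand), and the E-box at Lats2, a kinase of the Hippo pathway (chr14:57746104-57746273, minus strand). The BANP motif was read at Bclaf1 (chr10:20312319-20312488, plus strand). Each stretch is the sequence around 1 annotated TSS, and a match to these letters does not show that a factor was bound there.
Wdr1: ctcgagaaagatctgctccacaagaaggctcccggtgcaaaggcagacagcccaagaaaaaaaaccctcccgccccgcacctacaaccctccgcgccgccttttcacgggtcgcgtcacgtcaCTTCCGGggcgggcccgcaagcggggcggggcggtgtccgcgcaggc
Xpa: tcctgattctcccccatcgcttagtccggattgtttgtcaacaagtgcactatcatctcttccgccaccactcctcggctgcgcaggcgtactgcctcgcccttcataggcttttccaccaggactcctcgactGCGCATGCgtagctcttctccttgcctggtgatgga
Mnt: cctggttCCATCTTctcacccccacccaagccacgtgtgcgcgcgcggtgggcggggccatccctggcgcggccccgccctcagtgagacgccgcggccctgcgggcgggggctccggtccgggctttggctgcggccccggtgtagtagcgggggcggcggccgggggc
Gpbp1: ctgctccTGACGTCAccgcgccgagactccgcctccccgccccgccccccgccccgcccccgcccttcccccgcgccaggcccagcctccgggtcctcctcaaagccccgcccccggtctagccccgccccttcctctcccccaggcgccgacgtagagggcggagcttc
Lats2: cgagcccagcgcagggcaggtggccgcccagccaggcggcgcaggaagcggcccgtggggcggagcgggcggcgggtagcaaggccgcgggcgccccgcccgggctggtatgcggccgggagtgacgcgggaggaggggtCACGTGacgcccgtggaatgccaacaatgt
Bclaf1: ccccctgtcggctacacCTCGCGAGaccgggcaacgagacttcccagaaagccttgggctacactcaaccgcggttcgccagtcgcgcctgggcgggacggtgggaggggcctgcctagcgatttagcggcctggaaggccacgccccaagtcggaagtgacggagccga

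Member peaks were mostly under 1000 bp wide and sat on the TSS. Their width had a median of 601 bp, quartiles of 427 and 821.5 bp and a range of 233 to 3140 bp. CpG-poor peaks over 1 gene had a median of 514 bp (quartiles 366 and 789 bp) and peaks at divergent pairs one of 649 bp (449.75 and 864.25 bp), so the interquartile ranges of the 3 classes overlapped for most of their range. Peaks of 1000 bp or more made up 13.0% of members (296 of 2275, 95% Wilson interval 11.7 to 14.5%), and 8.31% were under 300 bp. Because a wider interval is more likely to overlap a TSS, width is not independent of how the peaks were chosen.

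Members reached about as far before the TSS as behind it. The median reach was 298 bp upstream (quartiles 167 and 438.5 bp) and 286 bp downstream (195 and 433 bp), where the TSS was the covered one nearest the midpoint of the peak. The midpoint lay downstream of the TSS in 51.9% of members (1181 of 2275, 49.9 to 54.0%) and within 100 bp of it in 53.4%. Midpoints were downstream in 44.0% of CpG-poor peaks, 7.89 percentage points less than in members (Newcombe 95% interval of the difference 0.811 to 14.8), and in 56.0% of divergent peaks, where the difference of -4.11 points had an interval of -8.70 to 0.548. Close to the TSS the cover was uneven: 84.5% of members covered the position 100 bp upstream and 90.4% the position 100 bp downstream, whereas at 250 bp the shares were 60.3% and 59.5%. The reach upstream and the reach downstream of a peak were unrelated (Spearman's rho = -0.00491 across 2275 peaks, which share their libraries).

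**Figure D1:**
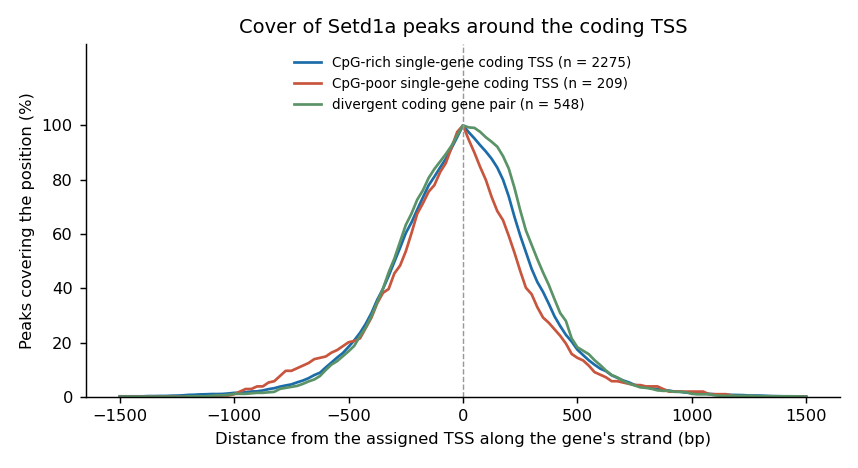
Share of peaks that cover each position (vertical axis, %) by distance from the assigned TSS along the strand of the gene (horizontal axis, bp, negative upstream) in members, CpG-poor peaks at 1 gene and peaks at divergent pairs. All curves reach 100% at the TSS by construction. Members fall to 18.4% at 500 bp upstream and 17.4% at 500 bp downstream.

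More than 1 TSS position was covered by 53.2% of members (1210 of 2275), and 22 members covered TSSs of more than 1 gene ID on the same strand. Taking the TSS nearest the midpoint draws such peaks towards symmetry, so the 1065 members over a single TSS position were also measured alone. Their median reach was 273 bp upstream and 274 bp downstream, their midpoint lay downstream in 52.7% (49.7 to 55.7%), and their median width was 554 bp. The midpoint lay within 100 bp of the TSS in 42.2% of them (449 of 1065). Over a single TSS position, midpoints were downstream in 46.8% of CpG-poor peaks (59 of 126, 38.3 to 55.5%). In divergent peaks the share was 62.0% (67 of 108, 52.6 to 70.6%). Both intervals overlapped that of members. With the most upstream covered TSS in place of the nearest one, the share of all members with a downstream midpoint was 59.9%. The position therefore depended on the TSS chosen, and only the peaks with 1 TSS are free of that choice.

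By base, 49.5% of the sequence in member peaks lay upstream of the TSS, 21.9% in untranslated exons, 21.5% in introns and 7.10% in coding exons of the assigned transcript. The downstream edge lay past the end of the first exon in 62.7% of members (1427 of 2275, 60.7 to 64.7%). The reach downstream showed no relation to the length of the first exon (rho = -0.0114 across 2237 members whose transcript has 2 or more exons). Where the first exon was 100 bp or shorter the median downstream reach was 298 bp (405 members), and where it was longer than 500 and up to 1000 bp the median was 297 bp (210 members).

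The CpG island around each TSS extended farther than the peak, above all into the gene. An island was taken as the joined 200 bp windows with a GC content of at least 50% and a CpG ratio of at least 0.6, searched up to 3000 bp each way. The assigned TSS lay in an island in 2257 of 2275 members, which follows in part from the rule on CpG content. Islands had a median length of 1124 bp (quartiles 898 and 1429 bp), and the peak lay whole inside the island in 67.5% of these members (1524 of 2257, 65.6 to 69.4%). The median peak took up 50.2% of its island. Islands reached 430 bp upstream and 666 bp downstream in the median, against 299 and 285 bp for the peaks over them. The upstream reach of a peak rose with that of its island (rho = 0.358), and the downstream reach did so less (rho = 0.125), both across 2257 peaks that share their libraries and in which the island and the peak are measured from the same TSS.

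Peak width went with the length of the island more than with CpG density. The median width was 435 bp over islands of up to 500 bp (19 members), 496 bp at 500 to 750 bp (235 members), 526 bp at 750 to 1000 bp (555 members), 611 bp at 1000 to 1500 bp (971 members) and 768 bp above 1500 bp (477 members). Across members, rho was 0.279 between width and island length, -0.150 between width and CpG ratio and -0.215 between width and GC content. The CpG ratio and the GC content were read from the peak itself, and a wide peak takes in more of the less dense flanks, so these last values share the peak interval.

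**Figure D2:**
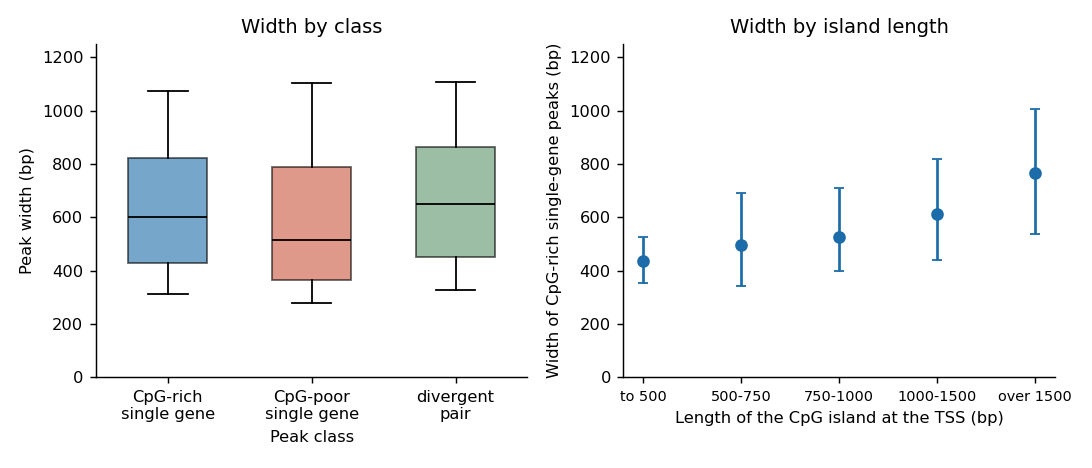
Left, peak width (bp) in members, CpG-poor peaks at 1 gene and divergent pairs, with boxes from the lower to the upper quartile, a line at the median and whiskers from the 10th to the 90th percentile. Right, median width of members (points) with quartiles (bars) by length of the CpG island at the TSS, rising from 435 to 768 bp.

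The sequence of members had a median GC content of 65.2% (quartiles 60.4 and 70.03%), a median CpG ratio of 0.850 and 8.78 CpG per 100 bp. Both CpG values follow in part from the rule, which sets the lowest ratio a member can have. The highest ratios were those of Zfp521, a zinc finger factor (1.32), Cdk11b, a cyclin-dependent kinase (1.27), Errfi1 (1.24), Chd7, a chromatin remodeller (1.23), and Atxn7l3b, a SAGA-related protein (1.22), all with peaks of 235 to 424 bp. The threshold cut through a continuous range. Just inside it were Strada at 0.600006, Lman2 at 0.6005 and Acaa2 at 0.6015, and just outside it Phc2 at 0.5993, Ddb2 at 0.5988 and Cyb561d1 at 0.5984. Between 0.6 and 0.65 there were 108 members, and between 0.55 and 0.6 there were 66 peaks on the other side. GC content was under 50% in 33 members.

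A noncoding TSS on the opposite strand lay within 1000 bp of 19.7% of members (449 of 2275, 18.2 to 21.4%). The share was 11.5% in CpG-poor peaks at 1 gene, a difference of 8.25 percentage points (2.98 to 12.3), and 2.01% in divergent pairs, where the opposite strand is already taken by a coding gene. On the same strand, 2.55% of members had a noncoding TSS this near. Around the principal TSS of CpG-rich promoters with 1 coding gene, chosen as described below, the share was 18.9% with a member peak. It was 14.3% where no listed peak lay within 3000 bp. The count takes any such TSS up to 1000 bp past either edge of a peak, also inside the gene. It does not show that the promoter itself is transcribed in both directions.

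To see which CpG-rich promoters carried a member peak, 1 principal TSS was taken for each protein-coding gene on chromosomes 1 to 19, by APPRIS rank, then transcript support level, then the most upstream position. Of 20722 such genes, 8863 had a CpG ratio of at least 0.6 over 500 bp at that TSS and no opposite coding TSS nearby, and these are called CpG-rich single-gene promoters below. A member peak covered a TSS of 2138 of them, 24.1% (23.2 to 25.02%). Any coding TSS of the gene counted, and the principal TSS itself lay inside a member peak in 1908. Another listed peak covered a TSS or lay within 3000 bp in 906 (10.2%), and 5819 (65.7%) had no listed peak within 3000 bp. Whether these genes were transcribed in the cells was not part of the list, and its part in the values that follow was not tested.

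The share with a member peak rose with CpG content and then levelled off. It was 12.1% (10.5 to 13.8%) of 1557 promoters with a CpG ratio of 0.6 to 0.7, 20.3% (18.6 to 22.1%) at 0.7 to 0.8, 26.1% (24.3 to 27.9%) at 0.8 to 0.9, 31.9% (29.8 to 34.1%) at 0.9 to 1.0, 32.0% (29.0 to 35.2%) at 1.0 to 1.1 and 29.2% (23.5 to 35.7%) of 212 promoters above that. Part of the rise follows from the rule, since a peak at a promoter near 0.6 can itself fall below the threshold. The intervals of the 3 highest bins overlapped. By GC content the share was 17.2% of promoters under 55%, 28.01% at 65 to 70% and 23.5% at 70% or more.

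Gene structure went with smaller differences. Exons and span were those of the principal transcript, whereas the peak could lie over any coding TSS of the gene. A gene with more annotated TSSs has more chances to be counted, and the part of this in the values was not tested. Promoters of transcripts with 1 exon had a member peak in 12.8% (36 of 282, 9.37 to 17.2%), and those with 9 to 15 exons in 28.3% (717 of 2534, 26.6 to 30.1%). By transcript span the share was 19.5% under 5 kb, 27.3% at 50 to 100 kb and 16.3% at 200 kb or more (86 of 526, 13.4 to 19.8%). Where a noncoding TSS lay on the opposite strand near the promoter the share was 28.8% (405 of 1405), against 23.2% of the others (1733 of 7458), a difference of 5.59 percentage points (3.08 to 8.19).

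Chromosome 10 had the highest share among the autosomes. On it 35.1% of the CpG-rich single-gene promoters had a member peak (30.9 to 39.5%), and on the other 18 chromosomes the shares ran from 18.2% on chromosome 14 to 26.6% on chromosome 16. Against the others pooled (23.5%), the difference was 11.6 percentage points (7.33 to 16.1). Chromosome 10 was singled out after its share was seen to be the highest, and the intervals in this paragraph make no allowance for that choice. Other listed peaks were also more frequent at its promoters, at 14.2%, 4.16 points above the rest (1.24 to 7.65). Its 176 members had a median width of 671.5 bp, beside 670 bp on chromosome 17 and 663 bp on chromosome 19, and its 4.05 listed peaks per Mb stood beside 4.36 on chromosome 11 and 4.13 on chromosome 19. The difference was 18.3 points at CpG ratios of 0.9 or more, 10.7 points at 0.75 to 0.9 and 1.31 points at 0.6 to 0.75 (-4.05 to 8.66). The share was 24.4% of 86 promoters in the first 40 Mb of the chromosome, 34.0% of 159 from 40 to 80 Mb and 39.9% of 228 beyond. Copy number and other properties of the cultures were not measured here, and their part in this value was not tested.

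**Figure D3:**
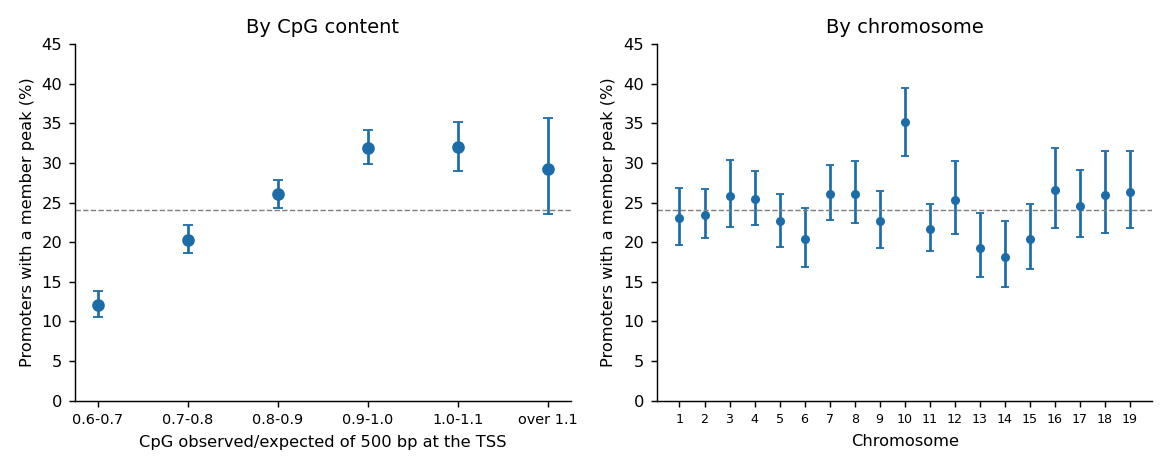
Share of CpG-rich single-gene promoters with a member peak (vertical axes, %) by CpG observed/expected ratio of 500 bp at the TSS (left) and by chromosome (right). Points are shares, bars 95% Wilson intervals and the dashed line the share over all 8863 promoters (24.1%). The share rises from 12.1% to about 32.0%, and chromosome 10 lies at 35.1%.

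Promoters with a member peak held several factor motifs more often than CpG-rich single-gene promoters with no listed peak within 3000 bp. The comparison took the 1908 promoters whose principal TSS lay inside the member peak and the 5819 without a peak, and searched both strands from 150 bp before to 50 bp after the TSS for fixed letters. None of the 13 motifs contains another whole, but neighbouring matches may overlap. The largest difference was that of the CCAAT box (CCAAT, bound by NF-Y), found in 37.2% of member promoters (710 of 1908), in 27.0% of those without a peak (1573 of 5819) and in 29.7% of all 20722 principal promoters. The difference was 10.2 percentage points (7.75 to 12.6). Its matches in member promoters lay at a median of -63.5 bp (quartiles -98.5 and -30.2 bp), where negative values are upstream.

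The NRF1 motif (GCGCATGC), named after a factor that controls many genes of mitochondrial function, was found in 7.97% of member promoters, 4.47% without a peak and 3.01% of all promoters, a difference of 3.50 points (2.23 to 4.89). The ETS motif (CCGGAAG), bound by the large ETS family that includes GABPA, was found in 17.8%, 14.4% and 9.91%, a difference of 3.40 points (1.51 to 5.39). The YY1 motif (AAGATGG) was found in 6.45%, 4.38% and 4.57%, with a difference of 2.06 points (0.905 to 3.36). YY1 matches had a median position of 3.5 bp but were spread widely (quartiles -74.5 and 25.75 bp). ETS matches had a median of -23.5 bp (-72.5 and 1.5 bp) and NRF1 matches one of -29 bp (-64 and 0 bp).

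Smaller differences were seen for the E-box (CACGTG, bound by Myc, USF and Bhlhe40 among others), at 9.70% of member promoters against 7.85% (5.93% of all), for the CRE (TGACGTCA, bound by CREB and ATF), at 4.35% against 3.14% (2.23% of all), and for the BANP motif (CTCGCGAG), at 2.20% against 1.29% (0.970% of all). Their differences were 1.84 points (0.402 to 3.40), 1.21 points (0.249 to 2.30) and 0.912 points (0.258 to 1.72). The GC box (GGGCGG, bound by Sp factors) was frequent in both groups, at 71.1% and 67.2% (42.5% of all), and differed by 3.88 points (1.48 to 6.21).

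For the remaining 5 motifs the interval of the difference included 0. The GC-rich Smad site (GGCGCC), considered because BMP4 acts through Smad proteins, was found in 21.9% of member promoters and 21.6% of those without a peak (12.5% of all), a difference of 0.271 points (-1.82 to 2.44). RBPJ (CGTGGGAA), the motif of the Notch effector, was found in 0.734% and 0.739% (0.584% of all), with an interval of -0.396 to 0.524. E2F (TTCCCGCC) was found in 3.35% and 3.42% (2.22% of all, interval -0.940 to 0.941), and ZNF143 (ACTACAATT) in 0.577% and 0.464% (0.463% of all, interval -0.217 to 0.588). The TATA box (TATAAA) was found in 3.04% and 3.76%, with an interval of -1.58 to 0.260, and in 8.67% of all promoters.

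CpG content differed between promoters, with a median ratio of 0.876 in the 2138 with a member peak at any TSS and 0.813 without a listed peak. The shares were therefore also set side by side within 3 ranges of the ratio. The CCAAT box was more frequent in member promoters in each of them, with differences of 16.6 points (10.6 to 22.6) at 0.6 to 0.75, 11.4 points (7.58 to 15.3) at 0.75 to 0.9 and 9.32 points (5.59 to 13.1) at 0.9 or more. NRF1 differed by 1.71 points (-0.437 to 4.89), 2.05 points (0.238 to 4.18) and 4.66 points (2.40 to 7.13) in the same order. ETS differed by 5.69 points (1.49 to 10.6), 3.63 points (0.647 to 6.82) and 0.590 points (-2.48 to 3.82). The GC box differed by 1.65, 2.35 and 0.102 points, and all of these intervals included 0. Those of BANP also included 0 in each range. The E-box and the CRE had intervals above 0 only at 0.75 to 0.9, with 2.70 points (0.441 to 5.23) and 1.88 points (0.391 to 3.69), and YY1 had them at 0.75 to 0.9, with 2.54 points (0.598 to 4.79), and at 0.9 or more, with 1.83 points (0.148 to 3.76). Promoters with at least 1 of 8 motifs (ETS, NRF1, YY1, CRE, E-box, BANP, ZNF143 and E2F) were counted over all CpG ratios together, not within these ranges. They made up 43.6% of member promoters (832 of 1908, 41.4 to 45.8%) and 33.3% of those without a peak (1939 of 5819, 32.1 to 34.5%). This last difference is therefore not free of the difference in CpG content.

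**Figure D4:**
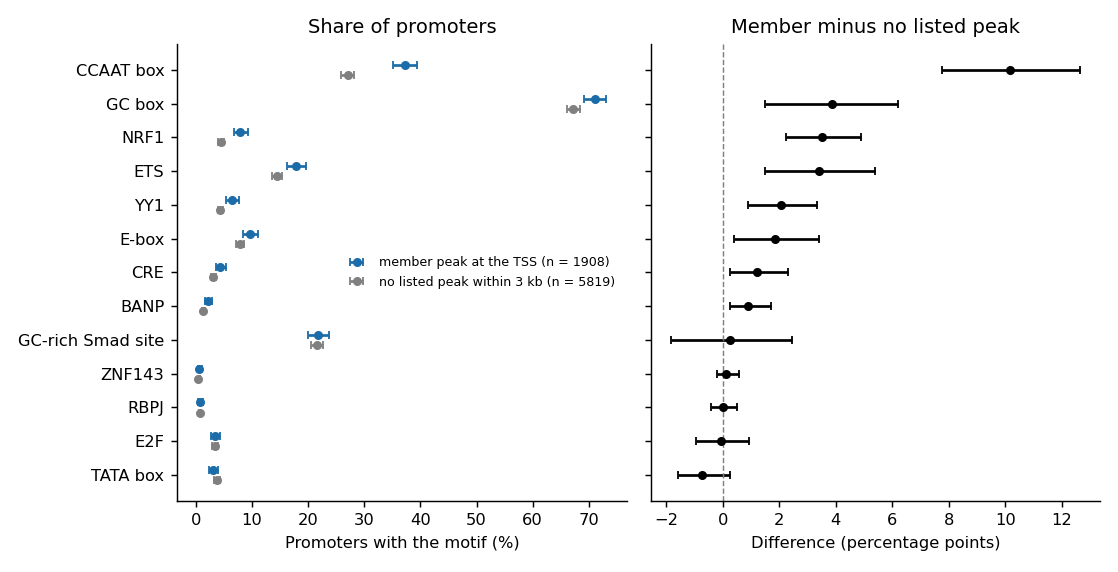
Left, share of promoters with each motif (horizontal axis, %) for promoters with a member peak at the TSS (blue) and with no listed peak within 3 kb (grey), with 95% Wilson intervals. Right, difference between them in percentage points with 95% Newcombe intervals and a dashed line at 0. The CCAAT box differs by 10.2 points, and the lowest 5 intervals cross 0.

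Among the subunits of SETD1 and related COMPASS complexes, 5 of 12 CpG-rich single-gene promoters had a member peak (41.7%, 19.3 to 68.05%), an interval that includes the 24.1% of all such promoters. The widest were those of Rbbp5 (1061 bp), a core subunit, and Kmt2b (962 bp), another H3K4 methyltransferase, followed by Wdr82 (321 bp) and Wdr5 (301 bp). Bod1l, which binds Setd1a, had the narrowest of all member peaks, at 233 bp. The median width of these 5 was 321 bp, against 601 bp over all members. Setd1b had another listed peak, and Setd1a, Cxxc1, Ash2l, Bod1, Kmt2a and Psip1 had none within 3000 bp. The nearest peak to the TSS of Setd1a itself began 30508 bp away, over Fbxl19, an F-box protein with a CXXC zinc finger.

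Against the 24.1% of all such promoters, the intervals of the spliceosome, heat shock and small GTPase lists lay higher, and those of RNA polymerase II and Mediator included it. In the spliceosome list 14 of 26 promoters had one (53.8%, 35.5 to 71.2%), with a median width of 660 bp, and the widest were at U2af2 (1720 bp), which recognises the polypyrimidine tract, Hnrnpc (974 bp), Cdc5l (937 bp) and Srsf6 (881 bp). In the list of heat shock proteins and chaperonins the count was 9 of 16 (56.2%, 33.2 to 76.9%), with a median width of 836 bp, led by Hspa8 (1132 bp), the constitutive cytosolic Hsp70, Hspa5 (1117 bp), its counterpart in the endoplasmic reticulum, Stip1 (1072 bp) and Dnaja1 (958 bp). RNA polymerase II and general factors had 9 of 23 (39.1%, 22.2 to 59.2%), with Polr2a, the largest subunit, at 1541 bp, Taf8 at 834 bp, Taf4 at 825 bp and Gtf2a1 at 588 bp. Mediator had 6 of 24, with Med16 (691 bp) the widest. Small GTPases of vesicle transport had 11 of 26 (42.3%, 25.5 to 61.1%), with Rab5a of early endosomes at 1373 bp. The wider family of Rab GTPases, taken by gene symbol, had 13 of 49 (26.5%, 16.2 to 40.3%). That interval included the 24.1% of all such promoters, so the higher share held for the chosen list only.

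Signalling lists that bear on quiescence had intervals that included the share of all promoters. In the Notch list 8 of 19 promoters had a member peak (42.1%, 23.1 to 63.7%), among them the ligand Jag1 (1038 bp), the receptor Notch1 (837 bp), the protease Adam10 (752 bp) and the effector Rbpj (739 bp). The genes without a listed peak included the ligands Dll1 and Jag2, the receptor Notch3 and the target Hey2, and Hes1 and Hey1 had another listed peak. In the BMP list 4 of 15 had one (26.7%), at the Id2 (920 bp) and Id4 (451 bp) genes of helix-loop-helix inhibitors, the signal transducer Smad1 (410 bp) and the inhibitory Smad7 (350 bp). None of the BMP receptor genes on the list had a member peak. Another listed peak was at Bmpr1a and at Acvr1, whose promoter was not in this class. The list of Foxo, mTOR and insulin signalling had 4 of 21 (19.05%), at Pik3r2 (1042 bp), Mtor (1036 bp), Mlst8 (675 bp) and Irs1 (547 bp). Another listed peak was at 8 of the 21, among them Foxo1 and Foxo3, beside 10.2% of all such promoters.

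The lists of replication, cell cycle, repair, lysosome and fatty acid genes all had intervals that included the 24.1% of all CpG-rich single-gene promoters. In the list of DNA replication genes 3 of 25 promoters had a member peak (interval 4.17 to 29.96%). They were those of Gins2 (689 bp), Cdt1 (657 bp) and the sliding clamp Pcna (325 bp). None of the Mcm helicase genes had one, Mcm4 had another listed peak, and Mcm4 and Mcm7 were outside this class. Cyclins, CDKs and inhibitors had 6 of 27 (22.2%), with Cdkn2d (1085 bp), Ccne2 (775 bp), Ccna2 (740 bp) and Ccnb1 (693 bp) the widest. The CDK inhibitor Cdkn1b (582 bp) was a member, and Cdkn1a, Cdkn1c, Cdk6 and Rb1 had no listed peak within 3000 bp. DNA damage and repair genes had 4 of 19 (21.1%), at Xpa (1305 bp), Xrcc2 (497 bp), the checkpoint kinase Atr (418 bp) and Nbn (390 bp). The lysosome list had 5 of 20 and the fatty acid list 4 of 15 (26.7%), with Fasn (1268 bp), the fatty acid synthase, and the desaturase gene Fads1 (1252 bp).

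Of 12 promoters of NSC markers that were CpG-rich with 1 gene, only that of Nes had a member peak (8.33%, 1.49 to 35.4%), and it was 307 bp wide. Another listed peak lay at or near the TSS in 5 of the 12, among them Sox2, Hes1, Nfib and Msi2, beside 10.2% of all such promoters. Gfap and Vim, whose promoters were not in this class, had another listed peak too. Sox9, Hes5, Pax6 and Tfap2c had no listed peak within 3000 bp. None of 10 neuron marker promoters had a member peak (0%, up to 27.8%), nor did the 2 of microglia and endothelium in this class, Kdr and Flt1. The intervals of the NSC and neuron lists both include the 24.1% of all such promoters. Of 4 oligodendrocyte lineage markers in this class Olig1 did (488 bp), and Pdgfra, outside the class by its principal TSS, had one of 1028 bp at another TSS. The other genes of the microglia and endothelial list had no promoter in this class, so these lists did not test the makeup of the cultures.

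Families grouped by gene symbol covered a wider range. They were written with the peak list at hand, and their intervals make no allowance for the number compared, so the ranking is descriptive. Of 28 families with at least 10 CpG-rich single-gene promoters, the highest share was that of the Kdm and Kmt histone lysine enzymes, 9 of 17 (52.9%, 30.96 to 73.8%). Next came nucleoporins (5 of 13, 17.7 to 64.5%), Ube2 ubiquitin-conjugating enzymes (11 of 29, 22.7 to 56.0%) and Ddx and Dhx helicases (13 of 35, 23.2 to 53.7%). The intervals of nucleoporins, Ube2 enzymes and helicases included the 24.1% of all such promoters. Cytosolic ribosomal proteins had 23 of 64 (35.9%, 25.3 to 48.2%) and mitochondrial ribosomal proteins 9 of 45 (20.0%, 10.9 to 33.8%). Zfp zinc finger genes, the largest family, had 51 of 210 (24.3%), close to the share of all promoters. At the low end, the Hox, Lhx, Pax, Nkx, Pou, Irx, Dlx, sine oculis-related and Tbx developmental factors had 1 of 79 (1.27%, 0.224 to 6.83%), at Tbx2 (413 bp). Sox factors had 1 of 12, at Sox12 (640 bp), with an interval of 1.49 to 35.4% that included the share of all promoters. None of 38 Kcn potassium channels, 27 protocadherins, 24 Wnt and Fgf ligands and 18 ephrins and Eph receptors had a member peak, and 4, 2, 2 and 1 of them had another listed peak. Tbx2 and Sox12 were named after their values were seen.

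**Figure D5:**
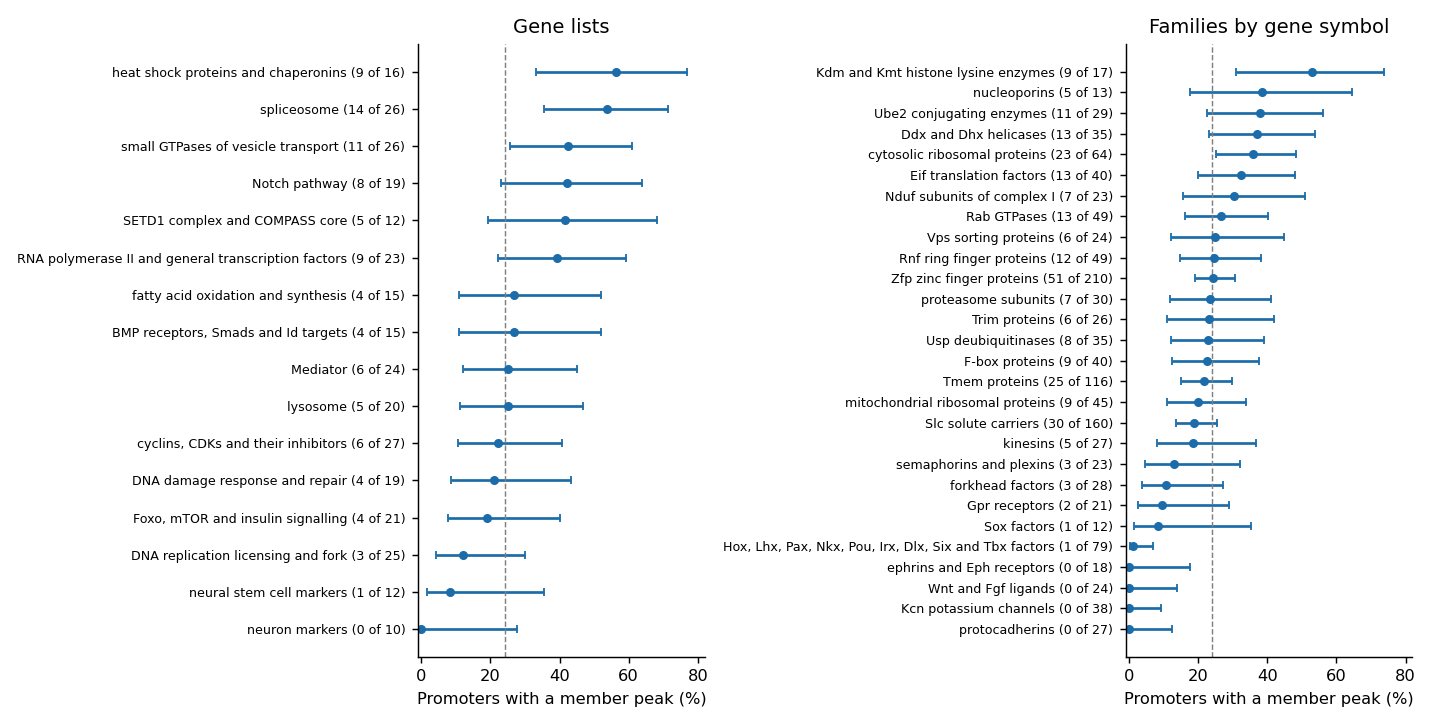
Share of CpG-rich single-gene promoters with a member peak (horizontal axes, %) in gene lists with at least 10 such promoters (left) and in families by gene symbol (right). Points are shares, bars 95% Wilson intervals, counts stand beside the names and the dashed line is the share over all such promoters (24.1%). Heat shock and spliceosome genes lie highest among the lists, and 4 families have no member peak. Lists and families were drawn up with results of these data known, and the intervals make no allowance for their number.

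Of the genes named for this experiment in the study, Atr and Dazap2 had member peaks. The Dazap2 peak was 1826 bp wide (chr15:100614885-100616710), reached 464 bp upstream and 1361 bp downstream of the TSS and had a CpG ratio of 0.851. The Atr peak was 418 bp wide (chr9:95857215-95857632), lay mostly upstream, with 382 bp before and 35 bp behind the TSS, and had a ratio of 0.717. Bhlhe40 and Bhlhe41, helix-loop-helix repressors of the circadian clock, were not members: their nearest peaks, of 1631 and 786 bp, had edges 172 and 803 bp from a coding TSS. The peak nearest Fbxl5, which regulates iron balance, ended 54 bp short of a coding TSS, and that nearest the glycolytic gene Pgk1, on chromosome X, 14 bp short.

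The 10 widest members spanned 1968 to 3140 bp. They were those of Ppp2r3d (3140 bp), Mnt (2836 bp), Gm11168 (2320 bp), the splicing factor Cactin (2257 bp), Disp3 (2250 bp), the clock output factor Tef (2078 bp), Ccnt1 (2025 bp), a subunit of the elongation factor P-TEFb, the RNA-binding protein Caprin1 (2018 bp), Epc2 (2000 bp), of a histone acetyltransferase complex, and the translation factor Eif4g2 (1968 bp). The Mnt peak reached 1276 bp upstream and 1559 bp downstream and filled most of an island of 2685 bp, whereas the Cactin peak lay mostly upstream, with its midpoint at -695 bp. Gm11168 met the rule with different sequence: 97.9% of its bases were masked as repeats, its GC content was 35.0%, its TSS lay in no CpG island, and 15 other listed peaks lay within 50000 bp. Only 8 of 2275 members were more than 50% repeats. The narrowest members were Bod1l (233 bp), Btbd11 and Atxn7l3b (235 bp each) and 2610507B11Rik and Atxn7l2 (236 bp each).

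In 13 genes, 2 or more member peaks lay over separate TSSs. The chromatin co-repressor gene Sin3a had peaks of 323 and 1631 bp, the repressor gene Cic peaks of 820 and 1383 bp, and the ETS factor gene Elf2 peaks of 308 and 1458 bp. Atxn2l had peaks of 719 and 1148 bp, Hivep2 of 416 and 1100 bp and Gm11168 of 2320 and 623 bp. Both peaks lay at the same island in Hivep2 and in the calcium pump gene Atp2b1 (689 and 405 bp). The same held for Sp1 (821 and 352 bp), whose product binds GC boxes, and for Zfp143 (558 and 579 bp), whose product binds the ZNF143 motif. In Sin3a, Cic and Elf2 the 2 peaks lay in different islands, and in Sin3a and Cic the peak farther inside the gene was the wider one.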

How the data were processed

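Setd1a CUT & RUN libraries from 2 independent cultures and 1 IgG library were made by the study from quiescent adult NSCs. According to the submitters' processing notes and the study's methods, reads were demultiplexed with bcl2fastq 2.17.1.14, trimmed with Trimmomatic 0.32, mapped uniquely to mm10 with Bowtie2 2.1.0 and filtered for mapping quality with SAMtools 0.1.18. The authors called peaks with MACS2 2.2.8 at default parameters and deposited 1 list of the peaks found in both replicates, with the first and last position of each in bp. How the intervals were joined and whether the IgG library was the control are not given in the sources used here. A site called in only 1 library is therefore not in the list, and reads that mapped to several places were not used.

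The peaks were placed on GENCODE M21 and GRCm38, the same build as mm10, with Python 3.11.15, numpy 2.4.6, pandas 2.3.3, scipy 1.17.1, pysam 0.24.0 and matplotlib 3.10.9. No test over samples was possible. Shares have 95% Wilson intervals and differences of shares 95% Newcombe intervals, computed over peaks or genes, which are not independent replicates and share their libraries. The genes named were those of the study's text, the 10 widest and 5 narrowest members, the 5 highest in CpG ratio, the 3 nearest on each side of the threshold, up to 10 genes with 2 or more member peaks and up to 4 of the widest in each of 18 gene lists. The members and lists were chosen with earlier results of these data known, and the 28 families were written with the peak list at hand. The steps were tested on simulated data: 300 of 300 peaks were given their class and 59 of 59 planted motifs were found. Alternatives covered the TSS set, the CpG threshold and window, the distance to an opposite TSS, the peak width, the overlap, the merging of peaks, the TSS of each peak and the motif window. All columns of positions were used. A few genes and 1 sequence that these rules pick are not reported here.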

Additional observations from a re-analysis of the deposited data

How the results depend on the processing

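Of 85 recomputed values, 79 stayed within the interval of the reported value (for widths its quartiles, for the number of members 1.5 times it) and none changed the sign of a difference whose interval excluded 0. The bounds for widths and for the number of members are wide, so staying within them says little. The number of members ran from 1773 with a CpG threshold of 0.75 to 2374 with 0.5, and the median width from 588 to 636 bp. The share of members with a downstream midpoint moved to 54.5% with TSSs of support level 1 only and to 59.9% with the most upstream TSS of each peak. The share of promoters with a member peak moved to 22.8% with a CpG threshold of 0.5, to 22.1% with peaks of 300 bp or more and to 20.9% with the TSS at least 50 bp inside the peak, the last 2 of which use fewer peaks. With the motif window from 250 bp before to 50 bp after the TSS, the E2F difference moved to 0.965 points (-0.123 to 2.18). Leaving out chromosome 10 and restricting the motif comparison to promoters of support level 1 (1705 with a member peak and 4992 without) were chosen after seeing the data. Without chromosome 10 the share of promoters with a member peak was 23.5%. Of the 8 motifs whose interval lay above 0, 23 of 24 recomputed intervals still did, the exception being the CRE at 0.959 points (-0.0401 to 2.11) among promoters of support level 1. Leaving out a replicate was not possible, since the list joins both. No paired analysis was possible because values per library are not in the peak table. Depth is unknown, so promoters without a listed peak may include bound ones.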
